A study of Homo sapiens with 60 samples.

Results

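The lowest dose of an ethanol extract of Coptidis Rhizoma, the rhizome of Coptis, was set against the lowest dose of an ethanol extract of Zizyphi Fructus, the jujube fruit, in HT29 cells, a human colorectal adenocarcinoma line. The members of the comparison are 4 of the 60 RNA-seq libraries of the series, chosen by their labels with earlier results of these data known. They are replicates 2 and 3 of Coptidis Rhizoma at 12.8 µg/mL and replicates 2 and 3 of Zizyphi Fructus at 20 µg/mL. Both pairs carry the number of the same library set, 11, and the cells of all groups were treated for 24 h. The same set holds 2 libraries each of Coptidis Rhizoma at 64 and 320 µg/mL and of Zizyphi Fructus at 100 and 500 µg/mL, which share no library with the comparison. Vehicle, 0.1% DMSO per the sample labels but 2% per the series design, has 3 libraries in a set of its own, so a difference from vehicle and a difference between library sets cannot be told apart. The low doses of the extracts differ, and each dose is relative to the extract's own top dose, so a difference between the extracts is one between these preparations as given.

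Coptis rhizome is known for berberine and related isoquinoline alkaloids. Berberine is taken up by mitochondria, where it inhibits respiratory complex I, and it is a ligand of the aryl hydrocarbon receptor (AhR), a transcription factor that switches on CYP1A1 and CYP1B1. Mitochondrial stress is known to act through the translation factor eIF2α on ATF4, which drives genes of amino acid synthesis and import. TXNIP and ARRDC4 are the best known targets of the glucose-sensing factors MondoA and ChREBP. Jujube fruit is rich in sugars, polysaccharides and triterpenes.

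The 4 libraries held 24.2 and 27.1 M counts for Coptidis Rhizoma and 25.4 and 23.6 M for Zizyphi Fructus, within 18.1 to 36.7 M over all 60. A floor of 3 counts corresponded to 0.117 to 0.133 CPM, the unit of all levels here, which relates a gene's counts to the scaled total of its library. All 12 epithelial markers were present, with summed levels of 11200 and 11200 CPM in Coptidis Rhizoma against 11000 and 11300 CPM in Zizyphi Fructus libraries. The fibroblast genes COL1A2, COL3A1, DCN and PDGFRA, the endothelial genes CDH5 and KDR and the leukocyte genes CD3E and MS4A1 were at 0 in all 4 libraries. The summed fibroblast markers stood at 2.89 and 2.74 against 2.29 and 2.18 CPM, and the endothelial ones at 3.02 and 2.78 against 2.22 and 2.48 CPM. The summed leukocyte markers, 1910 and 1770 against 1840 and 1850 CPM, were nearly all lysozyme (LYZ), a secretory product that intestinal epithelium also makes. Zizyphi Fructus medium replicate 3 stood apart from the rest, with 38.81% of its counts from mitochondrial mRNAs and 2402 genes over 2-fold from its replicate, against 13 to 24 genes in the other pairs of the set. That library is in no low-dose group, but it enters the shared estimate of spread, so the main counts are given with and without it. The labels do not say that replicates were separate cultures, so p-values measure the spread between these libraries, which may be technical.

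At low dose 28 of 16022 tested genes differed between Coptidis Rhizoma and Zizyphi Fructus at an adjusted p under 0.05 in edgeR's quasi-likelihood test, which is 0.175% of the genes. Of these, 21 were higher in Coptidis Rhizoma, 0.131%, and 7 were lower, 0.0437%. The difference was 2-fold or more for 9 of the 28, and the median change over all tested genes was -0.002 on the log2 scale. At an unadjusted p, 540 of the 16022 genes were under 0.05, which is the background for such counts in the lists below. The lists themselves were chosen with earlier results of these data known. Among the 28 called genes were mitochondrial ribosomal RNAs and mRNAs, AhR targets, genes of the ATF4 and amino acid list, aldo-keto reductases, and TXNIP and ARRDC4. Others, such as INSIG1, SLC22A3 and APOL6, stood outside these. Without Zizyphi Fructus medium replicate 3 in the fit, 69 genes passed, 46 higher and 23 lower, and all 28 were among them. Leaving out 1 of the 4 low-dose libraries gave smaller counts: 19 without Coptidis Rhizoma replicate 2, 16 without Coptidis Rhizoma replicate 3, 18 without Zizyphi Fructus replicate 2 and 14 without Zizyphi Fructus replicate 3. MT-RNR1, MT-RNR2, CYP1A1, CYP1B1, ALDH1A3, ALDH3A1, ASNS, CARS1, TXNIP and ARRDC4, 10 genes, passed in all 4 of these fits.

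**Figure D1:**
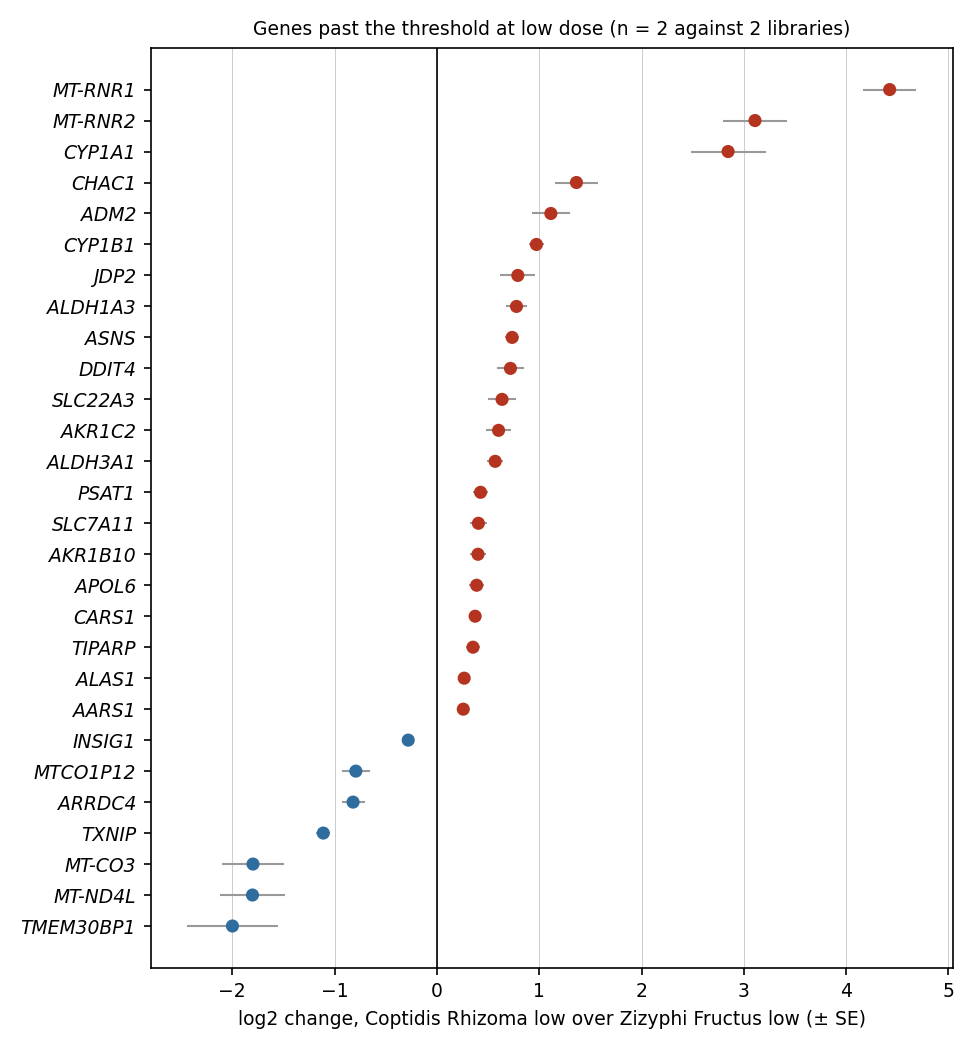
The 28 genes past the threshold at low dose, with the log2 change of Coptidis Rhizoma low over Zizyphi Fructus low on the horizontal axis and bars of ± 1 SE from the model (2 libraries a group). Red points are higher in Coptidis Rhizoma, from 4.43 for MT-RNR1 to 0.26 for AARS1, and blue points are lower, from -0.28 for INSIG1 to -1.998 for TMEM30BP1.

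The largest difference of the comparison was in the 2 ribosomal RNAs of the mitochondrial genome. MT-RNR1, the 12S rRNA of the small mitochondrial ribosomal subunit (GRCh38, mitochondrial genome, 648 to 1601), had 23830 and 22180 CPM in Coptidis Rhizoma low, against 1033 and 1109 CPM in Zizyphi Fructus low and a mean of 1315 CPM in vehicle. It was 21.5-fold higher (log2 4.43 ± 0.26 SE, edgeR adjusted p = 1.14e-15). MT-RNR2, the 16S rRNA of the large subunit (1671 to 3229), had 89130 and 81720 CPM in Coptidis Rhizoma, against 9678 and 10130 CPM in Zizyphi Fructus and 9955 CPM in vehicle. The Coptidis Rhizoma libraries lay far above every Zizyphi Fructus low and vehicle library for both RNAs, and the MT-RNR2 difference was 8.63-fold (log2 3.11 ± 0.32, adjusted p = 9.51e-09). Together they took 10.51% and 9.792% of all counts in Coptidis Rhizoma low, against 1.084% and 1.137% in Zizyphi Fructus low. Counting error on these shares is small, with 95% Wilson intervals of 10.494 to 10.518% and 9.7811 to 9.8034%, against 1.0796 to 1.0877% and 1.1328 to 1.1414%.

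The rRNA share did not grow with the dose. In Coptidis Rhizoma it was 6.445% and 6.265% at medium and 1.64% and 1.565% at high dose. In 20 groups of the series, all but the Coptidis Rhizoma doses and the medium and high doses of the formula Banhasasim-tang, which contains Coptidis Rhizoma, the group mean lay between 0.9996% and 1.925%. The upper value is that of Zizyphi Fructus medium, with 2.959% in the outlying library and 0.8914% in its replicate, and the next highest mean was 1.231%, in Bupleuri Radix high. The single Banhasasim-tang libraries had 2.073% at medium and 10.2% at high dose. The log2 difference of MT-RNR1 between Coptidis Rhizoma and Zizyphi Fructus was smaller at high than at low dose by 2.82 (adjusted p = 2.32e-09 for the difference), and that of MT-RNR2 by 2.60 (adjusted p = 2.22e-06). Libraries were made for mRNA, so more rRNA and rRNA that enters an mRNA library more readily cannot be told apart. Listed nuclear RNAs without a poly(A) tail summed to 20.4 and 32.1 CPM in Coptidis Rhizoma against 20.5 and 17.5 CPM in Zizyphi Fructus. Of this list 6 were at 0 in all 4 libraries, and 0 of 13 tested passed, with a median change of -0.08. None of these 13 was under 0.05 at an unadjusted p, and DESeq2 called 0. Whether mitochondrial rRNA enters an mRNA library as the listed RNAs do was not tested.

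Mammalian mitochondrial DNA is transcribed as long polycistronic RNAs from each strand, which are cut at tRNAs into rRNAs and mRNAs. Of 13 mRNAs, 2 passed, both lower. MT-CO3, a core subunit of cytochrome c oxidase (9207 to 9990), had 3728 and 3430 CPM in Coptidis Rhizoma low, against 12620 and 12250 CPM in Zizyphi Fructus low (log2 -1.80 ± 0.30, adjusted p = 6.71e-04). MT-ND4L, a membrane subunit of complex I (10470 to 10766), had 378.6 and 279.8 CPM against 1141 and 1154 CPM (log2 -1.80 ± 0.32, adjusted p = 1.56e-03). For both, the Coptidis Rhizoma libraries had about the same share of the Zizyphi Fructus level, 0.288-fold for MT-CO3 and 0.287-fold for MT-ND4L. Without Coptidis Rhizoma replicate 3 neither was called, with adjusted p = 0.069 for MT-CO3 and 0.271 for MT-ND4L. Between MT-CO1 and MT-ND4 all 8 mRNAs had a negative change, from -0.84 for MT-CO1 to the -1.80 of MT-ND4L. The mRNAs at the ends of the genome had positive values that did not pass: 0.55 for MT-ND1 and 0.38 for MT-ND2 just behind the rRNAs, and 1.54 for MT-ND5, 1.95 for MT-ND6 and 0.26 for MT-CYB at the far end.

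The library standing apart holds 62890 CPM of MT-CO3 against 10710 CPM in its replicate, and so widens the spread of these mRNAs. Without it, 8 of the 13 mRNAs were lower and 2 higher, the 2 being MT-ND5 and MT-ND6. MT-ND5, the largest complex I subunit made in mitochondria (12337 to 14148), had 8629 and 8765 CPM in Coptidis Rhizoma low, against 3284 and 2701 CPM in Zizyphi Fructus low and 2911 CPM in vehicle, with adjusted p = 0.128 in the full fit and 2.05e-12 without that library. MT-ND6, the one mRNA read from the other strand (14149 to 14673), had 1111 and 1302 CPM against 318.2 and 306.3 CPM in Zizyphi Fructus, with adjusted p = 0.311 and 5.71e-08 without that library. For both mRNAs the Coptidis Rhizoma libraries lay above all Zizyphi Fructus low libraries. The kit keeps the strand, but no source used here gives the strand setting of the counting, so reads of MT-ND5 and of RNA antisense to it cannot be told apart.

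**Figure D2:**
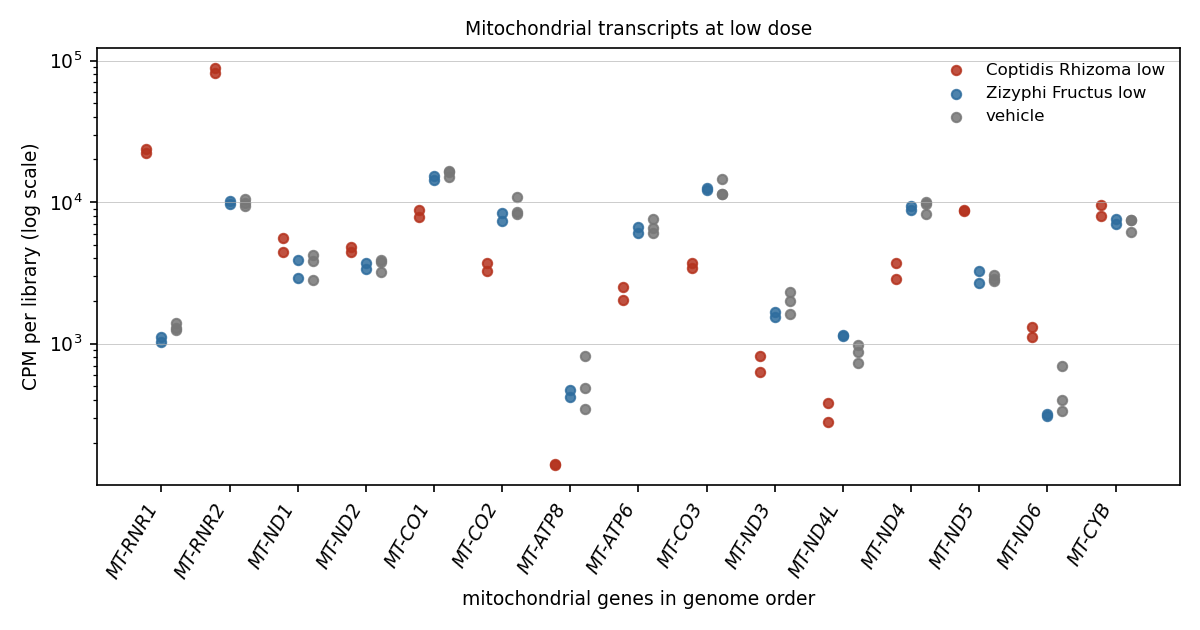
CPM on a log axis for the 15 rRNAs and mRNAs of the mitochondrial genome in genome order, 1 point a library, for Coptidis Rhizoma low (red, 2 libraries), Zizyphi Fructus low (blue, 2) and vehicle (grey, 3). MT-RNR1 and MT-RNR2 are far higher in Coptidis Rhizoma, the mRNAs between MT-CO1 and MT-ND4 are lower (3728 and 3430 against 12620 and 12250 CPM for MT-CO3), and MT-ND5 and MT-ND6 are above the other groups.

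At medium dose MT-ND5 had 1444 and 1244 CPM in Coptidis Rhizoma, against 2807 CPM in Zizyphi Fructus replicate 2, and at high dose 705.9 and 633.7 CPM against 2647 and 2600 CPM. It was thus above the Zizyphi Fructus libraries at low dose and below them at the higher doses. All mitochondrial mRNAs together took 4.968% and 4.464% of counts in Coptidis Rhizoma low against 7.439% and 7.024% in Zizyphi Fructus low. At high dose 12 of the 13 were lower in Coptidis Rhizoma and none was higher. Over all 16022 tested genes, 4608 were lower at that dose and 4490 higher. MTCO1P12, an unprocessed pseudogene copy of MT-CO1 on chromosome 1 (631074 to 632616) with which it can share reads, was at 32.87 and 32.41 CPM against 57.94 and 55.1 CPM (log2 -0.79 ± 0.13, adjusted p = 7.50e-04). It lost its call without Coptidis Rhizoma replicate 3, narrowly (adjusted p = 0.0505). The change of MT-CO1 itself was -0.84.

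Nuclear lists of mitochondrial genes held no call. Of 37 complex I subunits encoded in the nucleus, 0 passed in edgeR or in DESeq2 and 0 were under 0.05 at an unadjusted p, with a median log2 change of 0.08 and 30 of 37 above 0. Of 31 factors that transcribe, cut, modify or stabilise mitochondrial RNA, 0 passed in edgeR or in DESeq2 and 1 was under 0.05 at an unadjusted p, with a median of -0.02.

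AhR targets formed a second group. Of 14 tested genes of the AhR pathway, 5 rose and none fell, with a median log2 change of 0.26, against -0.002 over all genes. Without the outlying library 8 of the 14 rose. CYP1A1, the monooxygenase most used as a readout of AhR (chromosome 15, 74719542 to 74725610, minus strand), had 2.269 and 2.15 CPM in Coptidis Rhizoma low, against 0.4277 and 0.1677 CPM in Zizyphi Fructus low and 0.4595 CPM in vehicle. The fold was 7.19 (log2 2.85 ± 0.37, adjusted p = 3.73e-06). The Zizyphi Fructus levels lie close to the floor, and the log2 value ran from 2.35 to 3.68 over the alternatives tried. CYP1B1, a related enzyme that oxidises oestrogens and polycyclic hydrocarbons (chromosome 2, 38066973 to 38109902, minus strand), gave the firmest call of the group. It had 99.28 and 97.18 CPM in Coptidis Rhizoma, against 52.03 and 48.06 CPM in Zizyphi Fructus and 48.19 CPM in vehicle (1.96-fold, log2 0.97 ± 0.07, adjusted p = 7.05e-13). The replicates of each group lay within a few CPM while the groups lay nearly 2-fold apart.

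The other AhR genes that rose did so by less. ALDH1A3, which makes retinoic acid, had 29.49 and 28.89 CPM in Coptidis Rhizoma against 18.2 and 15.81 CPM in Zizyphi Fructus (1.72-fold, adjusted p = 2.92e-06). ALDH3A1, an aldehyde dehydrogenase of the AhR gene battery, had 28.11 and 25.37 CPM against 17.34 and 18.66 CPM (1.49-fold, adjusted p = 1.38e-05). TIPARP, a poly-ADP-ribose polymerase family member that feeds back on AhR, had 96.66 and 96.56 CPM against 75.05 and 76.28 CPM (1.28-fold, adjusted p = 0.0135). TIPARP lost its call without any 1 of the 4 libraries (adjusted p between 0.179 and 0.302). The receptor itself gave no call and its groups overlapped, with AHR at 121.4 and 127 CPM in Coptidis Rhizoma against 131.5 and 124.5 CPM in Zizyphi Fructus. The same held for its partner ARNT, at 32.16 and 34.83 against 33.83 and 33.67 CPM. AHRR, a repressor that AhR induces in many cells, was at 4.137 and 3.987 CPM against 5.055 and 4.361 CPM (log2 -0.22, adjusted p = 1). EREG, a growth factor known as an AhR target, was at 115.9 and 111.1 CPM against 90.25 and 89.11 CPM, with adjusted p = 0.0802, and was called once the outlying library was left out.

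CYP1A1 and CYP1B1 kept rising with the Coptidis Rhizoma dose. CYP1A1 reached 24.63 and 23.71 CPM at medium and 264.1 and 251.5 CPM at high dose, against 0.4022 and 0.5207 CPM in Zizyphi Fructus high. The log2 difference from Zizyphi Fructus was larger at high than at low dose by 6.26 (adjusted p = 1.39e-09). CYP1B1 reached 211.6 and 224.8 CPM and then 519.3 and 508.5 CPM, against 54.47 and 56.92 CPM in Zizyphi Fructus high, larger by 2.23 (adjusted p = 2.39e-21). ALDH3A1 was flatter, with 42.42 and 41.55 CPM at medium and 31.94 and 34.69 CPM at high dose, and its difference did not pass between doses (0.23, adjusted p = 0.0916).

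A further group held genes of amino acid supply. ATF4 binds amino acid response elements, written TGATGNAA, in the promoters of such genes. The letters were searched on both strands in the 250 bases before each RefSeq start site (GRCh38.p14), and 16 of the 28 called genes had such a promoter in the table. Several of the 16 had more than 1 window, and a gene counted if any of its windows matched. The shares over all promoters are of single windows, so counts of genes and shares of windows are unlike measures. A match was found for 4 of the 16, CHAC1, JDP2, ASNS and AARS1, and in 3.14% of 35116 promoter windows. It was in none of the windows of ADM2, DDIT4, PSAT1 and CARS1, which also rose and are described below. The core AhR motif, TNGCGTG, searched the same way, was found for 3 of the 16, ASNS, INSIG1 and TXNIP, and in 4.52% of windows. It was in none of the windows of CYP1A1, ALDH1A3 and TIPARP, the called AhR list genes with a promoter in the table. Bases further upstream than 250 were not searched, so a motif there would be missed. The NRF2 motif TGANNNNGC was found for 7 of the 16 and in 35.2% of windows, and the SREBP motif TCACNCCAC for 1, TIPARP, and in 0.883%. The stretches that hold TGATGNAA are shown for the 4 genes with a match. They read 5′ to 3′ along the gene's strand, with the match in capitals, which is on the opposite strand in CHAC1 and AARS1.
CHAC1, chr15:40953251-40953280, plus strand: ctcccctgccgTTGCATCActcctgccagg
JDP2, chr14:75427992-75428021, plus strand: tatatagccggggcTGATGCAAcccgtccc
ASNS, chr7:97872458-97872487, minus strand: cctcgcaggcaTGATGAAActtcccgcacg
AARS1, chr16:70289675-70289704, minus strand: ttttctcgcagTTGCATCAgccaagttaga
The first base of the match lies 209, 16, 68 and 187 bases before the start site in this order. A match is a description of letters, not a site shown to be bound. In CHAC1, JDP2 and ASNS other annotated starts lie further upstream, so these stretches can fall within the gene in GENCODE 29.

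Of 29 tested genes of the ATF4 and amino acid stress list, 5 rose and none fell, with a median log2 change of 0.25, and 28 of the 29 had a positive change, 96.6%, against 49.1% of all tested genes. CHAC1, which degrades glutathione (chromosome 15, 40952962 to 40956519), had 6.316 and 6.333 CPM in Coptidis Rhizoma low, against 2.955 and 1.929 CPM in Zizyphi Fructus low and 2.852 CPM in vehicle (2.57-fold, log2 1.36 ± 0.21, adjusted p = 1.02e-04). ASNS, asparagine synthetase and a standard ATF4 target (chromosome 7, 97852118 to 97872542, minus strand), had 107.6 and 102.1 CPM against 60.08 and 65.88 CPM and 59.87 CPM in vehicle (1.67-fold, log2 0.74 ± 0.07, adjusted p = 2.49e-10). For ASNS both Zizyphi Fructus libraries were close to vehicle. For CHAC1, Zizyphi Fructus replicate 3, at 1.929 CPM, lay below every vehicle library, the lowest of which had 2.511 CPM. DDIT4, an inhibitor of mTORC1 signalling, had 28.96 and 28.34 CPM against 18.39 and 16.4 CPM (1.65-fold, adjusted p = 1.67e-03). PSAT1, of serine synthesis, had 153.6 and 144.8 CPM against 112.5 and 109.4 CPM (1.34-fold, adjusted p = 1.56e-03), and SLC7A11, the cystine importer, 185.4 and 197.5 CPM against 147.3 and 141.6 CPM (1.33-fold, adjusted p = 0.0173). Without Zizyphi Fructus replicate 3, the lower library for CHAC1, the adjusted p was 0.0605 for CHAC1, 0.191 for DDIT4 and 0.0815 for PSAT1. PSAT1 also lost its call without Coptidis Rhizoma replicate 2 (0.11), and SLC7A11 without any 1 of the 4 libraries (0.0713 to 0.669).

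Other members did not pass. ATF4 mRNA was at 287 and 285 CPM in Coptidis Rhizoma against 236 and 249.3 CPM in Zizyphi Fructus (log2 0.24, adjusted p = 0.222), PCK2 at 29.58 and 29.67 against 21.39 and 22.1 CPM (0.45, adjusted p = 0.778) and TRIB3 at 54.8 and 51.64 against 42.58 and 43.57 CPM (0.31, adjusted p = 1). These 3 were called without the outlying library, where 11 of the 29 rose. DDIT3, which encodes the stress factor CHOP, was at 6.405 and 6.724 CPM against 5.716 and 5.703 CPM (0.20, adjusted p = 1), and GDF15, a secreted stress hormone, at 43.33 and 40.34 against 41.57 and 42.35 CPM. At high dose the same list had 28 genes higher and none lower, with DDIT3 at a log2 difference of 4.07 and GDF15 at 2.65. Of all 16022 tested genes, 4490 were higher and 4608 lower at that dose.

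Of 20 cytosolic aminoacyl-tRNA synthetases, which load tRNAs with amino acids, 2 rose and none fell, with a median of 0.12, and 6 rose without the outlying library. CARS1, for cysteine, had 86.03 and 85.96 CPM in Coptidis Rhizoma against 65.21 and 67.47 CPM in Zizyphi Fructus (1.296-fold, adjusted p = 1.65e-04). AARS1, for alanine, had 161.6 and 169.1 CPM against 137.8 and 138.8 CPM (1.20-fold, adjusted p = 3.33e-03), the smallest rise called at low dose. Those near no change included FARSB at 80.78 and 81.47 against 79.32 and 83.37 CPM and HARS1 at 88.47 and 89.71 against 86.48 and 91.67 CPM. At high dose 12 of the 20 were higher and 4 lower, where 4490 of all 16022 genes were higher and 4608 lower. Outside the lists, ADM2, a peptide of the calcitonin family, had 4.404 and 4.417 CPM against 2.178 and 1.887 CPM (2.16-fold, adjusted p = 7.75e-04). JDP2, a repressor of the AP-1 and ATF family, had 7.295 and 5.942 CPM against 3.888 and 3.732 CPM (1.73-fold, adjusted p = 0.026). Each of AARS1, ADM2 and JDP2 depended on single libraries: without Zizyphi Fructus replicate 3 the adjusted p was 0.0722, 0.0815 and 0.487 in this order. AARS1 also lost its call without Zizyphi Fructus replicate 2 (0.115) or Coptidis Rhizoma replicate 3 (0.271), and JDP2 without replicate 2 of Zizyphi Fructus (0.31) or of Coptidis Rhizoma (0.95).

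NRF2 drives genes of the oxidant and electrophile response. Of 25 tested targets 3 were higher than in Zizyphi Fructus and none lower, SLC7A11 among the 3, with a median of 0.13 and 24 of 25 above 0. AKR1C2, an aldo-keto reductase that reduces steroids, had 15.12 and 13.56 CPM in Coptidis Rhizoma against 9.76 and 9.1 CPM in Zizyphi Fructus (1.52-fold, adjusted p = 0.0173), and it can share reads with the near-identical AKR1C1, at 16.55 and 15.95 against 13.57 and 11.91 CPM (log2 0.35, adjusted p = 1). AKR1B10, an aldo-keto reductase of retinal and lipid aldehydes, had 115.8 and 121 CPM against 87.1 and 92.21 CPM (1.32-fold, adjusted p = 0.0117). The vehicle means were 112 CPM for AKR1B10 and 11.33 CPM for AKR1C2, in each case above both Zizyphi Fructus low libraries. Both genes lost their call without any 1 of the 4 libraries, with adjusted p from 0.0552 to 0.544 for AKR1C2 and from 0.0695 to 0.401 for AKR1B10. Of the widely used NRF2 readouts, HMOX1, haem oxygenase, stood at 10.59 and 9.773 CPM against 9.254 and 9.393 CPM (log2 0.13 ± 0.15, adjusted p = 1), and NQO1, a quinone reductase, at 609.5 and 587.1 against 507.3 and 509.2 CPM (0.24 ± 0.13, adjusted p = 1). NQO1 was called without the outlying library (adjusted p = 1.69e-04), where 5 of the 25 targets rose. At high dose HMOX1 stood at a log2 difference of 3.17 and NQO1 at 1.57, within 21 targets higher and 2 lower. The background at that dose was 4490 genes higher and 4608 lower of 16022 tested.

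The firmest fall of a nuclear gene was that of TXNIP, an arrestin-domain protein that restrains glucose uptake and binds thioredoxin (chromosome 1, 145992435 to 145996600, minus strand). MondoA and ChREBP bind carbohydrate response elements, in which CACGNG stands on either side of a 5-base spacer, and such a pair occurs in 16 of 35116 promoter windows, 0.0456%. TXNIP alone among the 16 called genes with a promoter holds one, and ARRDC4, also among the 16, holds none. The TXNIP pair is shown 5′ to 3′ along the gene's strand with its spacer, both in capitals, from 88 bases before the start site.
TXNIP, chr1:145996644-145996673, minus strand: gatgtgCACGAGGGCAGCACGAGcctccgg
TXNIP had 28.34 and 27.95 CPM in Coptidis Rhizoma low, against 61.4 and 60.05 CPM in Zizyphi Fructus low and 60.07 CPM in vehicle. The replicates of each group lay close together and the groups far apart, and TXNIP fell to 0.463-fold (log2 -1.11 ± 0.07, adjusted p = 1.34e-15). ARRDC4, the closest relative of TXNIP in this pathway (chromosome 15, 97960698 to 97973838), had 5.115 and 6.02 CPM against 10.46 and 9.226 CPM and 9.953 CPM in vehicle (0.567-fold, log2 -0.82 ± 0.11, adjusted p = 1.30e-05). These were the only calls among 19 tested genes of glucose and energy sensing, whose median change was -0.03. ARRDC3, a related arrestin, was at 19.57 and 17.94 CPM against 17.73 and 18.41 CPM, and no tested subunit of AMP-activated protein kinase passed. Of 23 genes of glucose uptake and glycolysis and of 18 genes that hypoxia induces, 0 passed in edgeR or DESeq2, and 1 in each list was under 0.05 at an unadjusted p.

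TXNIP and ARRDC4 are the 2 called genes whose difference turned round at high dose. At medium dose TXNIP was still low, at 20.81 and 22.23 CPM in Coptidis Rhizoma against 59.64 CPM in Zizyphi Fructus replicate 2. At high dose it was at 211.9 and 218.7 CPM against 57.56 and 62.33 CPM, log2 1.84. The log2 difference was larger at high than at low dose by 2.95 (adjusted p = 7.89e-26). ARRDC4 followed the same course, with 4.589 and 5.748 CPM at medium against 11.83 CPM in Zizyphi Fructus replicate 2, and 53.59 and 51.03 CPM at high dose against 10.59 and 9.253 CPM (larger by 3.22, adjusted p = 4.74e-21).

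**Figure D3:**
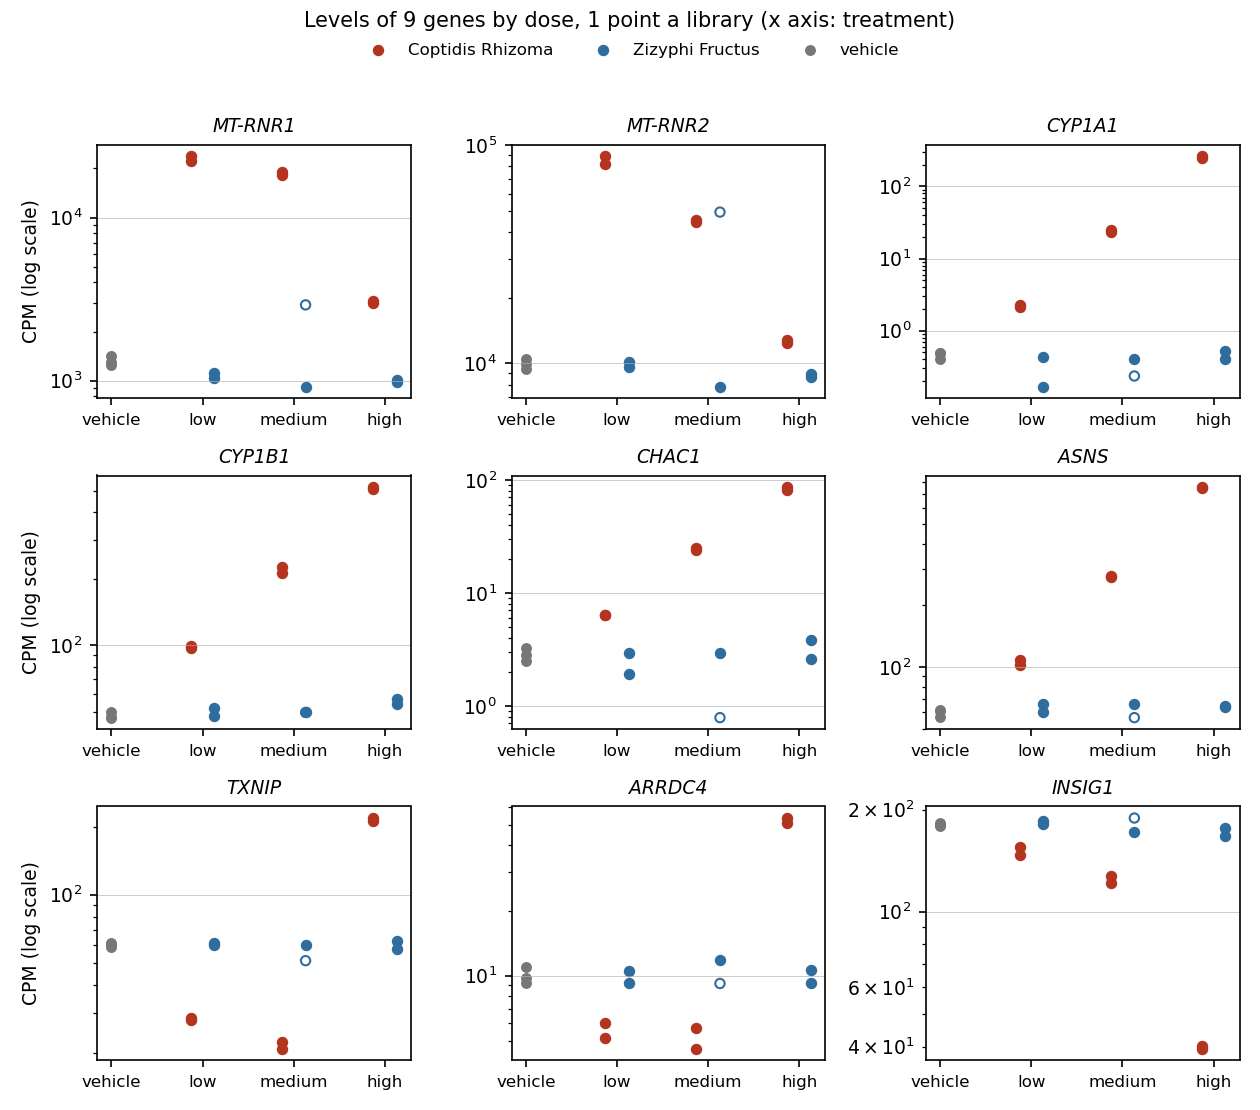
CPM on log axes for 9 genes, 1 point a library, by treatment: vehicle (grey, 3 libraries), then Coptidis Rhizoma (red, 12.8, 64 and 320 µg/mL) left of Zizyphi Fructus (blue, 20, 100 and 500 µg/mL) at low, medium and high dose, 2 libraries each. The open blue circle is Zizyphi Fructus medium replicate 3. CYP1A1, CYP1B1, CHAC1 and ASNS climb with the Coptidis Rhizoma dose, INSIG1 declines, the rRNAs are highest at low dose, and TXNIP and ARRDC4 lie below the Zizyphi Fructus libraries at low and medium dose and above them at high dose.

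One gene of cholesterol supply passed. INSIG1, which retains the SREBP complex in the endoplasmic reticulum and is itself an SREBP target (chromosome 7, 155297776 to 155310235), had 155 and 146.6 CPM in Coptidis Rhizoma low against 184.8 and 181.2 CPM in Zizyphi Fructus low (0.824-fold, log2 -0.28 ± 0.06, adjusted p = 0.022), a call lost without any 1 of the 4 libraries (0.0713 to 0.945). Of 26 tested genes of cholesterol synthesis and uptake, it was the only call, and the median was -0.13 with 2 of 26 above 0; without the outlying library 2 fell. HMGCS1, an early enzyme of the pathway, was at 231 and 232 against 270 and 274.3 CPM (log2 -0.23, adjusted p = 1), and was called without the outlying library. At high dose INSIG1 reached 39.44 and 40.03 CPM against 176.2 and 166.9 CPM. There 25 of the 26 genes were lower in Coptidis Rhizoma, against 4608 of all 16022 tested genes.

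The other called genes belonged to none of these groups. SLC22A3, a transporter of organic cations, had 10.19 and 11.61 CPM in Coptidis Rhizoma against 7.271 and 6.751 CPM in Zizyphi Fructus (1.56-fold, adjusted p = 0.0191). APOL6, an apolipoprotein L family member, had 45.1 and 48.83 CPM against 34.88 and 36.9 CPM (1.31-fold, adjusted p = 2.76e-03). ALAS1, the first enzyme of haem synthesis, had 60.94 and 56.45 CPM against 48.92 and 48.6 CPM (1.20-fold, adjusted p = 0.0263). TMEM30BP1, a processed pseudogene near the floor, was at 0.2224 and 0.1564 CPM against 0.8943 and 0.629 CPM (log2 -1.998, adjusted p = 0.0325). These calls were lost with single libraries left out, any of the 4 for TMEM30BP1, Coptidis Rhizoma replicate 3 or Zizyphi Fructus replicate 2 for APOL6, all but Coptidis Rhizoma replicate 2 for SLC22A3 and all but Coptidis Rhizoma replicate 3 for ALAS1. The adjusted p was then at most 0.322 for APOL6, 0.893 for SLC22A3, 0.97 for TMEM30BP1 and 1 for ALAS1. APOL6, ALAS1, TIPARP and TMEM30BP1 are called genes named beyond the rule for named genes, after their values were seen. Genes named without a call at low dose in the full fit also lie outside that rule, apart from HMOX1 of the fixed set.

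Several lists with many calls at high dose, where 56.8% of all tested genes passed, held no edgeR call at low dose. Others, such as the ATF4 and cholesterol lists, held calls at both. Of 33 DNA replication genes 0 passed at low dose, with a median of -0.01 and 1 gene under 0.05 at an unadjusted p, while 33 were lower at high dose. Of 26 mitosis genes 0 passed and 0 were under 0.05 unadjusted, against 22 lower at high dose. Of 31 interferon response genes 0 passed at low dose, with a median of 0.12, 25 above 0 and 1 under 0.05 unadjusted, while 31 were higher at high dose. IFI44L, an interferon-induced gene, had 2.891 and 1.876 CPM in Coptidis Rhizoma low against 1.555 and 1.887 CPM in Zizyphi Fructus low, with overlapping groups and a log2 change of 0.46. Of 17 goblet and secretory genes and of 15 WNT and stem cell genes 0 passed, with 1 and 0 under 0.05 unadjusted. At high dose 3 of the goblet genes were higher and 10 lower, and 1 of the WNT genes was higher and 9 lower. Of 26 ERK feedback and immediate early genes 0 passed and 2 were under 0.05 unadjusted. DESeq2 called 1 of these ERK genes and 0 in the other 5 lists. A list without calls could still lean one way: 25 of 25 ribosomal protein genes had a positive change, with a median of 0.08, 0 calls in edgeR or DESeq2 and 0 under 0.05 unadjusted.

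**Figure D4:**
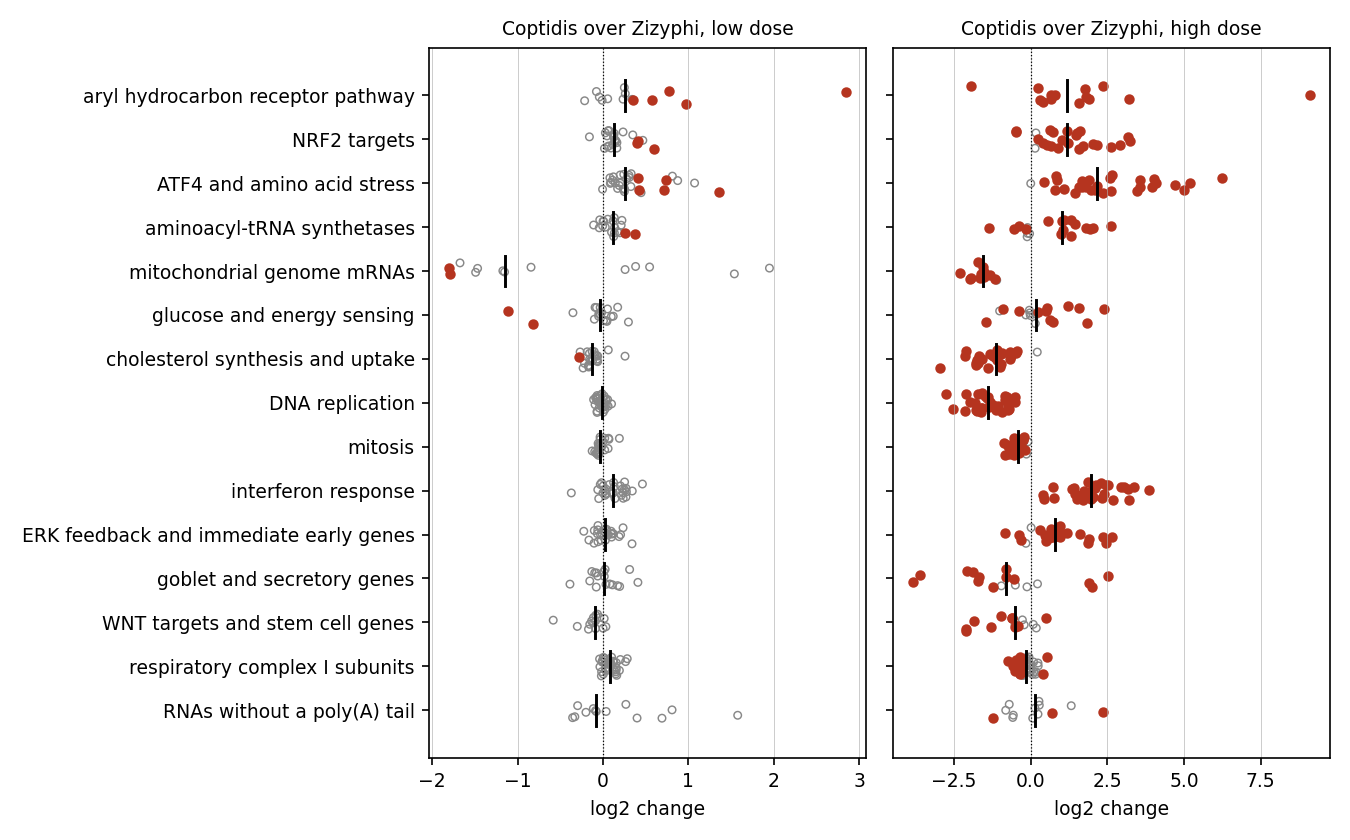
Log2 change of Coptidis Rhizoma over Zizyphi Fructus for each tested gene of 15 lists at low dose (left) and at high dose (right), on separate horizontal scales. Filled red points passed the threshold, open grey ones did not, and black bars are list medians. At low dose calls sit in few lists, 5 of 14 AhR and 5 of 29 ATF4 genes among them. At high dose 31 of 31 interferon and 33 of 33 DNA replication genes passed, against 56.8% of all tested genes.

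At the higher doses far more genes differed. At high dose 9098 genes passed, 56.8% of those tested. At medium dose 1095 of 16009 passed without the outlying library, 6.84%, while the fit with it gave 6376. Zizyphi Fructus medium then has 1 library, which is assumed to vary like the other groups. Of the 28 genes called at low dose, 26 had the same sign at high dose, 25 of them called, against the 56.8% called among all genes, and 22 were larger there. At medium dose, without the outlying library, 27 had the same sign and were called, and 23 were larger. TMEM30BP1 was the exception at medium dose, with a log2 change of 1.09 (adjusted p = 0.305). The low-dose and high-dose differences were themselves unequal for 23 of the 28, where 42.9% of all tested genes were called. The 28 were chosen by their low-dose values, which enter that test. Among the graded genes, ADM2 reached 46.8 and 49.7 CPM at high dose against 1.787 and 1.442 CPM, and DDIT4 265.5 and 275.8 CPM against 17.92 and 15.34 CPM. ASNS reached 278.7 and 276 CPM at medium and 757.4 and 753.2 CPM at high dose, against 64.57 and 63.85 CPM in Zizyphi Fructus high.

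Against vehicle, 981 genes passed in Coptidis Rhizoma low, 6.12%, and 968 in Zizyphi Fructus low, 6.04%. These comparisons share the vehicle libraries with each other and the low-dose libraries with the comparison above, so values are given side by side and no overlap is counted. TXNIP had a log2 change of -1.09 in Coptidis Rhizoma low and 0.02 in Zizyphi Fructus low, CYP1B1 1.03 and 0.06, ASNS 0.81 and 0.07, and MT-RNR1 4.13 and -0.30. For these 4 genes the distance from vehicle was in the Coptidis Rhizoma libraries. AKR1B10 differed from them, at 0.08 in Coptidis Rhizoma (adjusted p = 0.573) and -0.32 in Zizyphi Fructus (adjusted p = 7.28e-03). ALDH3A1 lay on both sides of vehicle, at 0.23 in Coptidis Rhizoma (adjusted p = 0.0398) and -0.34 in Zizyphi Fructus (adjusted p = 3.08e-03). TIPARP was above vehicle in both, by 0.57 (adjusted p = 1.60e-07) in Coptidis Rhizoma and 0.22 (adjusted p = 0.0388) in Zizyphi Fructus.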

How the data were processed

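RNA of HT29 cells was sequenced in 60 libraries of 25 groups. Per the submitters' processing notes, the tools were STAR 2.7.3a for the human build GRCh38, RSEM 1.3.3, Trim Galore 0.6.5 and FastQC 0.11.9. Neither annotation nor strand setting is stated in the sources used here. The table the authors deposited gives RSEM's expected counts, unscaled, for 60675 gene IDs. Of these IDs, 93.2% had a symbol and GENCODE 29 held 94%, which supplied coordinates. Of 270 value columns, 210 belong to samples not analysed here. Of the expected counts used, 91% were whole, and all were rounded.

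The filter kept the 16022 genes that reached 0.5 CPM in 3 or more libraries. In edgeR 4.0.16 (R 4.3.3), TMM scaling and a quasi-likelihood model with 25 group means covered all 60 libraries; 35 degrees of freedom remained, and the biological coefficient of variation was 7.83%. Adjusted p-values are Benjamini-Hochberg over all tested genes, with a threshold of 0.05. CPM values use TMM-scaled totals, and the SE of a log2 change is its size over the square root of F. Replicates of the low-dose pairs differed by more than counting noise, with a chi-square per gene of 5.34 for Coptidis Rhizoma and 3.26 for Zizyphi Fructus. Intervals and floors cover counting error only. The fit was also run on simulated counts. These had the same mean in all groups apart from changes put in, and no outlying library, so cannot show what that library does.

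The rule for named genes asked for a symbol, a mean log2 CPM of 1 or more and a call at low dose. It took the 12 largest rises and falls, up to 4 members of each of 35 lists, up to 6 genes of opposite sign at high dose, and always a fixed set that includes MT-RNR1, MT-RNR2, CYP1A1, CYP1B1, TXNIP, CHAC1 and HMOX1. Some results are not reported here. The members and lists were chosen with earlier results of these data known. Promoter sequences are from RefSeq, GRCh38.p14. Alternatives covered scaling, filters, libraries in the fit, the replicate block, rRNAs left out, robust spread and DESeq2 1.42.0.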

Additional observations from a re-analysis of the deposited data

Results flagged for a closer look

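For 23 of the 28 genes called at low dose, the difference between Coptidis Rhizoma and Zizyphi Fructus was itself unequal between high and low dose. This is by edgeR's interaction test at an adjusted p under 0.05, which called 42.9% of all 16022 tested genes. The 28 were chosen by their low-dose values, which enter the same test. The values below are the log2 difference at high dose minus that at low dose. It was largest for CYP1A1, at 6.26. ADM2 stood at 3.79. In the ATF4 and aminoacyl-tRNA synthetase lists, CHAC1 stood at 3.34, DDIT4 at 3.31, ASNS at 2.82, SLC7A11 at 2.22, PSAT1 at 2.15, AARS1 at 1.66 and CARS1 at 1.07. ARRDC4 at 3.22 and TXNIP at 2.95 differ in kind, since their sign was negative at low and positive at high dose. Among AhR targets, CYP1B1 stood at 2.23, TIPARP at 1.54 and ALDH1A3 at 1.00. The others with larger differences at high dose were AKR1C2 at 2.30, JDP2 at 2.25, APOL6 at 2.14, SLC22A3 at 1.53 and ALAS1 at 0.26. INSIG1, at -1.83, and MTCO1P12, at -0.80, were further below Zizyphi Fructus at high dose. The mitochondrial rRNAs went the other way: MT-RNR2 stood at -2.60 and MT-RNR1 at -2.82, as both were closer to Zizyphi Fructus at high than at low dose. The doses of the extracts differ at each level, 12.8 against 20 µg/mL at low and 320 against 500 µg/mL at high dose.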

How the results depend on the processing

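The model, the filter and the libraries in the fit set how many genes pass at low dose, and no called gene changed direction under any of the 15 alternatives tried. MT-RNR1, CYP1A1, CYP1B1 and TXNIP, 4 genes, passed under every one in which they were tested, and 24 lost their call under at least 1. Against 28 genes in all, 21 higher and 7 lower, no filter on low counts gave 107, 70 and 37, and the 4 low-dose libraries alone gave 71, 50 and 21. The 12 libraries of set 11 alone gave 4, 3 and 1, and with Zizyphi Fructus medium replicate 3 also left out, an alternative chosen after seeing the data, 155, 108 and 47. All libraries but that one gave 69, 46 and 23. Leaving out each low-dose library in turn gave 14 to 19 in all, 9 to 14 higher and 2 to 6 lower. Median-of-ratios scaling gave 30, a filter of 2 CPM 31, rRNAs left out 26, DESeq2 35, of which 27 were among the 28, and robust spread, also added later, 28.

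The outlying library moved other counts too: without it 1095 rather than 6376 genes passed at medium dose, 3031 rather than 981 for Coptidis Rhizoma low against vehicle and 3244 rather than 968 for Zizyphi Fructus low against vehicle. Leave-outs gave 4108 to 10036 at medium dose, 186 to 1468 for Coptidis Rhizoma low against vehicle and 107 to 1656 for Zizyphi Fructus low against vehicle. In the low-dose comparison replicate numbers are shared by only 2 pairs, and the deviations of same-numbered libraries had r = -0.096. Between other groups of the set r reached 0.207, for Coptidis Rhizoma low with Zizyphi Fructus high. A single replicate difference a group cannot show whether libraries were handled in pairs, and the main fit does not pair them. A replicate block gave 29 genes at low dose, of which 27 were among the 28. The depth limits genes near the floor of 0.117 to 0.133 CPM, such as CYP1A1 in Zizyphi Fructus and TMEM30BP1.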

Other observations

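Without Zizyphi Fructus medium replicate 3 in the fit, further genes not named above also passed at low dose. CCN2, a matrix-associated growth factor and YAP target, stood at a log2 change of -0.71 in the fit with all libraries (adjusted p = 0.0536), ITGA1, a collagen receptor subunit, at -0.32 (adjusted p = 0.274), and SLC14A1, a urea transporter, at -0.52 (adjusted p = 0.0536). MUC13, a membrane mucin of intestinal epithelium, stood at -0.24 (adjusted p = 1). SLC1A4, a transporter of neutral amino acids, was at 0.42 (adjusted p = 0.0889) and NNMT, which methylates nicotinamide, at 0.33 (adjusted p = 1). CYP1B1-AS1, antisense to CYP1B1, was at 0.77 (adjusted p = 1), and its reads cannot be told apart from those of CYP1B1 where counting ignores the strand.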
